A study of Mus musculus with 8 samples.

Results

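Mouse Paneth cells transcribed 6 genes for secreted or granule-associated lipases, proteases and the lipase cofactor colipase. In controls their levels differed up to 372.7-fold per annotated exon length (155.3-fold per canonical transcript length). After tumor necrosis factor (TNF) 1 of the 6, the phospholipase gene Pla2g2a, passed the test across all genes (log2 1.01), against 43.0% of the 13368 genes tested (23.4% called higher in TNF). With libraries scaled by their total counts alone none of the 6 passed (Pla2g2a log2 0.63, adjusted p = 0.149, edgeR). The 6 genes are Pla2g2a, Pnliprp1, Pnliprp2, Clps, Mmp7 and Habp2. They were found by their symbols in the GENCODE mouse annotation, through the Ensembl gene IDs of the count table, and all 6 were present among the 55414 IDs and passed the filter on low counts. RNA was measured and not protein, so that storage in granules was not observed. The annotation gives Pla2g2a no intact reading frame on the C57BL/6J reference.

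The 8 libraries came from purified Paneth cells of the small intestine of wild-type mice, which the study's methods describe as C57BL/6J. For 4 of them the mice had been injected with phosphate-buffered saline (PBS), and for the other 4 with TNF, an inflammatory cytokine, and the intestine was taken 3 hours later. Neither the labels nor the methods used here give the injected dose or the age of these mice. The design calls the 4 libraries of a group biological replicates and addresses what TNF does to gene expression in these cells.

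Paneth cells sit at the base of the intestinal crypts and release granules filled with antimicrobial proteins, chiefly alpha-defensins (Defa genes) and lysozyme (Lyz1). Group IIA phospholipase A2, the product of Pla2g2a in animals with an intact gene, hydrolyses phospholipids of bacterial membranes. Matrilysin, encoded by Mmp7, cuts mouse pro-alpha-defensins into their active forms. The lipase-related proteins encoded by Pnliprp1 and Pnliprp2, and colipase (Clps), the cofactor that anchors pancreatic lipase to fat droplets, are best known from the pancreas. Habp2 encodes a serine protease that binds hyaluronan and circulates in plasma.

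The libraries held between 23824717 and 32576077 counts. Lyz1 made up 15.3% to 20.4% of them and the summed Defa genes 32.0% to 51.4%, and both are defining products of Paneth cells. The Defa sum is uncertain, because the 28 Defa genes are close copies of each other. All 28 share stretches of 75 transcript bases with another Defa gene, 14 of them over at least 50% of their stretches, and 11 had at most 160 counts in every library. No source used here says how reads that match several genes were counted, so that the sum may leave such reads out, and ratios to it refer to the Defa counts as deposited. Nfkbia, an inhibitor of NF-kB that TNF is known to induce, was at 20.5 to 26.9 normalized CPM in PBS and 299.5 to 371.1 in TNF, where normalized CPM (counts per 1000000 counts) use a library size rescaled with TMM factors and plain CPM use the library total alone. TNF replicate 4 stood apart, with a TMM factor of 0.448 against 0.995 to 1.36 in the other 7 libraries and 51.4% of its counts on Defa genes against 32.0% to 37.9%. Results for the 6 genes that rest on this library are therefore given with and without it. Of 25 listed markers of pancreatic acinar cells, 14 had 0 counts in all 8 libraries, among them Pnlip (pancreatic lipase), Cpa1 (carboxypeptidase), Prss2 (trypsinogen) and Ptf1a (the acinar regulator). The whole acinar list summed to 246.3 to 303.2 plain CPM in PBS and 27.8 to 79.6 in TNF. Most of that sum was Bhlha15, a regulator of secretory cells, which ranged from 5884 to 8853 counts in PBS and from 523 to 1828 in TNF. Summed markers of enteroendocrine cells lay at 10.8 to 16.6 plain CPM in PBS and 27.3 to 39.7 in TNF. In PBS and then in TNF, those of goblet cells lay at 3992 to 7459 and 3418 to 7865, of enterocytes at 281.4 to 345.5 and 119.3 to 317.6, and of crypt stem cells at 2568 to 2963 and 907.3 to 2478. Immune markers summed to 9.92 to 13.9 and 11.9 to 30.8, stromal markers to 0.273 to 0.614 and 0.577 to 1.88, and tuft cell markers to 12.5 to 29.0 and 7.54 to 23.7, and 4 of 9 immune and 2 of 7 stromal markers were at 0 in every library. Most of the immune sum was Lyz2, another lysozyme gene, with 749 counts in TNF replicate 4 and 266 to 352 in the other 7 libraries. Of the markers that could be tested, 0 of 5 acinar genes were called higher in TNF and 1 lower, 2 of 7 goblet genes higher and 2 lower, 0 of 8 enterocyte genes higher and 1 lower, and 0 of 6 stem cell genes higher and 4 lower. Called higher were 3 of 4 enteroendocrine, 1 of 2 immune and 1 of 1 stromal genes, with none of these lower, and 0 of 3 tuft cell genes were called, all beside the 43.0% of all tested genes. Several of these counts changed with the setting. Of all tested genes 23.8% were called with library size alone and 50.4% without TNF replicate 4. With library size alone and then without TNF replicate 4, goblet genes were 0 higher and 2 lower, then 2 and 3, enterocyte genes 0 and 3, then 1 and 3, stem cell genes 0 and 3, then 0 and 4, acinar genes 0 and 2, then 0 and 1, and enteroendocrine genes 2 and 0 under both. The Paneth cells had been purified with a cell sorter, which is meant to remove such other cells, and their part in the results below was not tested. In bulk RNA fewer cells and less RNA per cell cannot be told apart.

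In PBS the 6 genes together took 1.26% ± 0.0864 (SD, n = 4) of all counts, and in TNF 1.09% ± 0.0829 (SD, n = 4). The highest TNF library, at 1.1629%, lay just under the lowest PBS library, at 1.1661%, and this share, like plain CPM, is not rescaled. To compare genes with each other the normalized counts were divided by the length of each gene's annotated exons. On this scale of normalized CPM per kilobase, Clps reached 3344 ± 834 (SD, n = 4) and Mmp7 3317 ± 262 in PBS. Their ranges overlapped, and Clps was the higher of the pair in 2 of 4 libraries, so these levels did not differ beyond their spread. Pnliprp2 followed at 2029 ± 460, Pla2g2a at 483.7 ± 26.8, Habp2 at 145.0 ± 13.5 and Pnliprp1 at 8.97 ± 2.15, and below Mmp7 no neighbouring ranges overlapped. The widest step of the series, 16.2-fold, was that from Habp2 down to Pnliprp1, and with the canonical transcript lengths it was 8.86-fold. On the canonical transcript length Pnliprp1 stood at 25.2, because its annotated exons add up to 4554 bases against a canonical transcript of 1619 bases, and the order of the 6 was kept.

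In TNF the order was Mmp7 (5263 ± 4486, SD, n = 4), Clps (3358 ± 734), Pnliprp2 (1997 ± 266), Pla2g2a (971.2 ± 112.8), Habp2 (118.3 ± 10.7) and Pnliprp1 (7.69 ± 0.910). Mmp7 and Clps overlapped again. The mean of Mmp7 rested on TNF replicate 4, and over TNF replicates 1 to 3 Mmp7 was at 3028 ± 460.6 (SD, n = 3) and Clps at 2998 ± 170.9, with the order of the 6 as before. The step from Pnliprp2 to Pla2g2a was 4.19-fold in PBS and 2.06-fold in TNF, and the step from Pla2g2a to Habp2 was 3.34-fold and 8.21-fold.

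**Figure D1:**
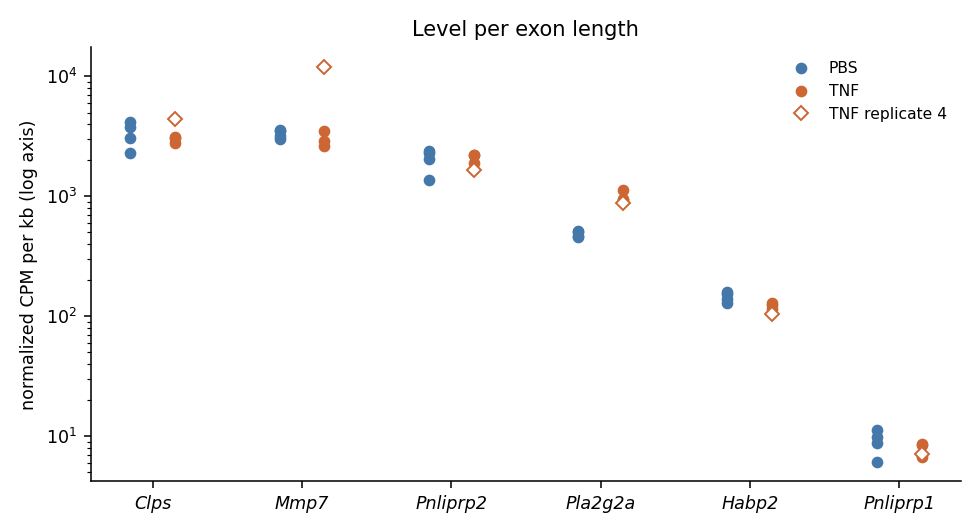
Level of each gene per exon length in every library (y axis: normalized CPM per kilobase, log axis; x axis: gene, ordered by the PBS mean; blue points: PBS, orange points: TNF, open diamonds: TNF replicate 4). Clps and Mmp7 overlap at the top, Pnliprp1 lies lowest at 6.14 to 11.2, and the open diamond of Mmp7 lies at 11967, above all other points.

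Between TNF and PBS, 1 of the 6 genes was called by edgeR's quasi-likelihood test at a Benjamini-Hochberg adjusted p under 0.05, beside 43.0% of all tested genes; whether the 2 shares differ was not tested. The median log2 fold change of the 6 was -0.01, and that of all tested genes was 0.03. Without TNF replicate 4 these medians were -0.13 and -0.02, and with library size alone -0.39 and -0.38. In normalized CPM the PBS and TNF ranges did not overlap for 2 of the 6 genes, Pla2g2a (higher in TNF) and Habp2 (lower), against 42.1% of all tested genes.

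**Figure D2:**
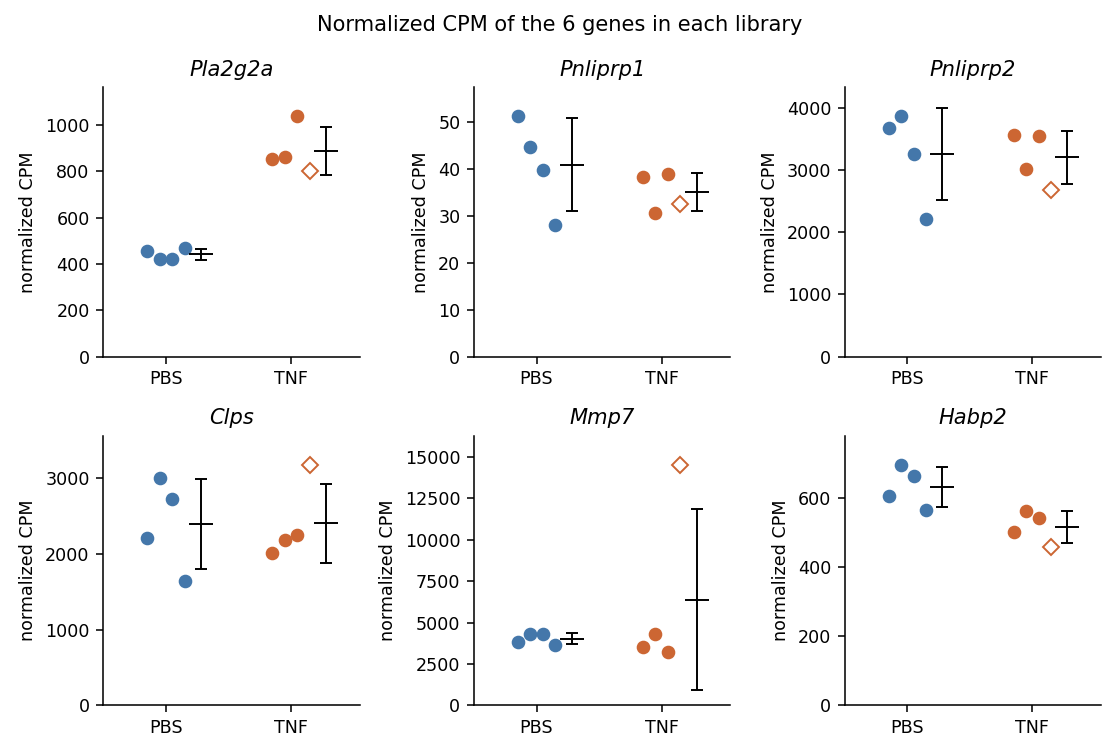
Normalized CPM of the 6 genes by library (y axes start at 0; blue points: PBS replicates 1 to 4, orange: TNF replicates 1 to 3, open diamond: TNF replicate 4; black: mean and SD of 4 libraries). The Pla2g2a groups are separate, Habp2 lies lower in TNF by a narrow margin, the other 4 genes overlap, and Mmp7 in TNF replicate 4 lies at 14528 normalized CPM.

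Pla2g2a (ENSMUSG00000058908, GRCm39 chr4:138559171-138562497, plus strand) was at 458.0, 423.8, 419.6 and 468.8 normalized CPM in PBS replicates 1 to 4. In TNF it was at 851.9, 861.4, 1039 and 802.8. Every TNF library lay above every PBS library, TNF replicate 4 included. The gene rose 2.01-fold (log2 1.01 ± 0.15 SE, 95% interval 0.68 to 1.33, adjusted p = 0.000324, edgeR). The fit that left out TNF replicate 4 gave a log2 fold change of 1.07 (adjusted p = 1.06e-05, edgeR) and called 50.4% of the genes it tested. With libraries scaled by their total counts alone the value was 0.63 and missed the threshold (adjusted p = 0.149, edgeR), so that none of the 6 genes was called, against 23.8% of all tested genes. The plain CPM behind that value were 445.1 to 636.1 in PBS and 857.3, 942.1 and 1104 in TNF replicates 2, 1 and 3, with 359.7 in TNF replicate 4, the lowest of the 8. That scaling put the median of all tested genes at -0.38.

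The annotation does not give Pla2g2a an intact reading frame on this reference, which is of the C57BL/6J strain. GENCODE types its canonical transcript as a loss-of-function coding transcript with 442 annotated coding bases, 1 more than a multiple of 3, and RefSeq lists the gene as a transcribed pseudogene. C57BL/6 mice are known for a natural frameshift in this gene. Of the other 5 genes, and of the neighbouring phospholipase genes Pla2g2c, Pla2g2d, Pla2g2e, Pla2g2f and Pla2g5, every canonical reading frame was a multiple of 3 and ended at its annotated stop. The frame of Pla2g2a is printed because it is the frame of the 1 gene of the 6 that was called. From the start codon, the spliced sequence reads 68 codons before a TGA in exon 4 (GRCm39 chr4:138559983-138560597, introns removed, plus strand, 207 bases; the start and stop codons are in capitals).
Pla2g2a: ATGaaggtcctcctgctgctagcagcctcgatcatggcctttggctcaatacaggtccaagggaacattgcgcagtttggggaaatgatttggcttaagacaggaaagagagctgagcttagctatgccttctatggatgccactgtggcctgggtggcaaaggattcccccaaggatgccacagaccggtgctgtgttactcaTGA

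Pla2g2a lies in a cluster of phospholipase A2 genes on chromosome 4. Of 5 neighbours there 3 were tested and all 3 were called, 2 higher and 1 lower, beside the 43.0% called among all tested genes. Pla2g2f, a secreted phospholipase whose start site lies 74.2 kb before that of Pla2g2a, was at 253.4, 240.7, 258.7 and 237.0 normalized CPM in PBS and at 540.9, 577.1, 660.0 and 392.3 in TNF. It rose by log2 1.13 ± 0.17 (SE, adjusted p = 0.000362, edgeR). With library size alone Pla2g2f was not called (log2 0.81, adjusted p = 0.101, edgeR), and in plain CPM it was at 252.8 to 321.6 in PBS, 574.4 to 701.7 in TNF replicates 1 to 3 and 175.8 in TNF replicate 4, the lowest of the 8. Pla2g5, group V phospholipase, was at 5.72 to 7.34 normalized CPM in PBS and 17.4 to 22.7 in TNF, and rose by log2 1.60 ± 0.13 (SE, adjusted p = 7.07e-06, edgeR). In normalized CPM every TNF library lay above every PBS library for both genes, and Pla2g5 was also called with library size alone (log2 1.17, adjusted p = 0.00975, edgeR). Pla2g2c went the other way, from 15 to 41 counts in PBS to 1 to 13 in TNF (log2 -1.29 ± 0.38 SE, adjusted p = 0.0177, edgeR). Pla2g2d, with 2 to 7 counts in PBS and 4 to 24 in TNF, was too low to be tested, and Pla2g2e had 1 count in all libraries together. The Pla2g5 gene as annotated spans Pla2g2a on the opposite strand without sharing an exon base. Its canonical transcript does not, since the 250 bases upstream of that transcript are chr4:138546608-138546857, before Pla2g2a. Counts of Pla2g5 were 1.22% to 1.60% of those of Pla2g2a in PBS and 1.67% to 2.82% in TNF.

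**Figure D3:**
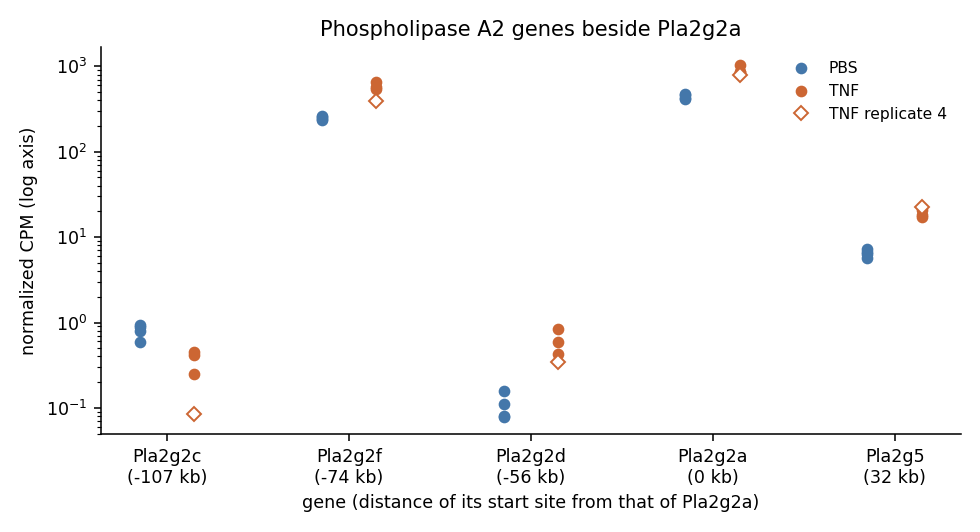
Phospholipase A2 genes around Pla2g2a in every library (y axis: normalized CPM, log axis; x axis: genes by the distance of their start site from that of Pla2g2a; blue: PBS, orange: TNF, open diamonds: TNF replicate 4). Pla2g2f, Pla2g2a and Pla2g5 lie higher in all 4 TNF libraries and Pla2g2c lies lower, and Pla2g2d was not tested. Start sites are the outermost of each annotated gene, and the canonical start of Pla2g5 lies before Pla2g2a.

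The 250 bases upstream of the canonical start sites of Pla2g2a and Pla2g2f are printed because these 2 genes of the cluster had the most counts and both rose. Capitals mark matches, on either strand, to 6 short patterns: a TATA box (TATAAA), AP-1 (TGANTCA), NF-kB (GGG, 5 free bases and CC), C/EBP (TTNNGNAA), TCF/LEF (CTTTGAN) and a STAT site (TTCNNNGAA). Pla2g2a held the NF-kB and C/EBP letters, and so did Pla2g2f. Those letters also stood in 47.8% and 36.9% of the same window of 21757 protein-coding genes, and neither gene had a match to the other 4 patterns. Among the genes that were not called, Mmp7 held both, Pnliprp2 and Clps held the NF-kB letters, Habp2 the C/EBP letters and Pnliprp1 neither. Pla2g5, which also rose, held the NF-kB letters and no C/EBP letters.
Pla2g2a (chr4:138558921-138559170, plus strand): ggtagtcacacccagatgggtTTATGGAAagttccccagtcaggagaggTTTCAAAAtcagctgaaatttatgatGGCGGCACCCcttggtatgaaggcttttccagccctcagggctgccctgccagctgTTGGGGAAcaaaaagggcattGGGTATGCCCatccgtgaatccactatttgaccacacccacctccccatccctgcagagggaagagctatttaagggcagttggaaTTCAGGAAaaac
Pla2g2f (chr4:138484958-138485207, minus strand): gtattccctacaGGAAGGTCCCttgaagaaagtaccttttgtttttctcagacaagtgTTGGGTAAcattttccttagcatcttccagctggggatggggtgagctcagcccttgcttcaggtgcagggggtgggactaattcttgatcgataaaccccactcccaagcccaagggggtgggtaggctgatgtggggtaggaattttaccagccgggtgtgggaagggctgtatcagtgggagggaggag

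The lipase-related genes and colipase did not pass the test. Pnliprp2 (ENSMUSG00000025091, GRCm39 chr19:58748118-58765966, plus strand), whose product is known to hydrolyse galactolipids and phospholipids, was at 3678, 3868, 3264 and 2217 normalized CPM in PBS. In TNF it was at 3566, 3026, 3543 and 2686. PBS replicate 4 was the lowest library, TNF replicate 4 the next lowest, and the groups overlapped. The log2 fold change was -0.02 (95% interval -0.54 to 0.49, adjusted p = 0.947, edgeR), and the fit that left out TNF replicate 4 gave 0.07.

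Pnliprp1 (ENSMUSG00000042179, GRCm39 chr19:58717319-58732601, plus strand), for whose product little lipase activity is known, is the chromosomal neighbour of Pnliprp2, 15.5 kb upstream with no annotated gene in between. It was at 51.2, 44.6, 39.8 and 27.9 normalized CPM in PBS and 38.3, 30.6, 38.8 and 32.5 in TNF. The TNF values lay within the PBS range. The log2 fold change was -0.22 (95% interval -0.61 to 0.17, adjusted p = 0.337, edgeR), and the fit that left out TNF replicate 4 gave -0.17. Without PBS replicate 4, the lowest PBS library, it was -0.40 and passed (adjusted p = 0.0498, edgeR). Within each library Pnliprp1 had 1.01% to 1.39% of the counts of Pnliprp2, and PBS (1.15% to 1.39%) and TNF (1.01% to 1.21%) overlapped.

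Clps (ENSMUSG00000024225, GRCm39 chr17:28777123-28787857, minus strand) was at 2207, 3000, 2725 and 1646 normalized CPM in PBS and at 2010, 2184, 2246 and 3178 in TNF. The highest and the lowest of the 8 values were TNF replicate 4 and PBS replicate 4. The log2 fold change was 0.01 (95% interval -0.54 to 0.55, adjusted p = 0.987, edgeR). It was -0.14 in the fit that left out TNF replicate 4 (adjusted p = 0.538, edgeR). In plain CPM the order of the libraries was different. There Clps was at 2772, 3150, 2903 and 2234 in PBS and 2223, 2173, 2388 and 1424 in TNF, and the fold change with library size alone was log2 -0.43 (adjusted p = 0.167, edgeR). Clps had 60.0 to 83.5 counts for every 100 of Pnliprp2 in PBS, 56.4 to 72.2 in TNF replicates 1 to 3 and 118.3 in TNF replicate 4.

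Mmp7 (ENSMUSG00000018623, GRCm39 chr9:7692091-7699587, plus strand) was at 3848, 4286, 4302 and 3670 normalized CPM in PBS. In TNF it was at 3547, 4288 and 3192 in replicates 1 to 3 and at 14528 in replicate 4. Replicates 1 to 3 fell in or below the PBS range, and replicate 4 was above every other library. The log2 fold change was 0.67 (95% interval -0.35 to 1.68, adjusted p = 0.267, edgeR). It was -0.12 in the fit that left out TNF replicate 4 (adjusted p = 0.50, edgeR). With library size alone it was -0.06. The sign for Mmp7 thus turned without TNF replicate 4 and without the TMM factors. In that library Mmp7 made up 67.0% of the counts of the 6 genes, against 30.1% to 42.7% in the other 7.

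Mmp7 shares an exon stretch with the antisense long noncoding gene AV064505 (ENSMUSG00000086381, GRCm39 chr9:7669430-7695632, minus strand). Of the 149 bases of Mmp7 exon 3, 123 also lie in a 138-base exon of AV064505. AV064505 counts were 25.6% to 26.5% of those of Mmp7 in all 8 libraries, TNF replicate 4 included at 25.7%, and of all 13367 other tested genes AV064505 was the most like Mmp7 over the libraries. This gene was picked for the overlap after its values were seen. The library kit marks strand, but no source used here gives the strand setting of the counting, and the part of the shared stretch in either count was not tested. It is printed in the Mmp7 direction (GRCm39 chr9:7695495-7695617, plus strand).
Mmp7 and AV064505 shared stretch: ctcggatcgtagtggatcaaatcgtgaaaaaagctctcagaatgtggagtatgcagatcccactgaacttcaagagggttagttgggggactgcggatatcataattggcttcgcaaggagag

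Habp2 (ENSMUSG00000025075, GRCm39 chr19:56275569-56309254, plus strand) was at 605.3, 696.1, 662.5 and 564.2 normalized CPM in PBS. In TNF it was at 501.7, 563.6, 540.8 and 457.0. The highest TNF library lay just under the lowest PBS library. The log2 fold change was -0.29 ± 0.15 (SE, 95% interval -0.61 to 0.03) and missed the threshold (adjusted p = 0.128, edgeR), while DESeq2 gave -0.30 with an adjusted p of 0.0489. The fit that left out TNF replicate 4 gave -0.22 (adjusted p = 0.106, edgeR). In plain CPM the groups were farther apart, at 705.7 to 765.5 in PBS, 554.8 to 575.0 in TNF replicates 1 to 3 and 204.8 in TNF replicate 4. Ranges on that scale did not overlap for 35.6% of all tested genes. The end of Habp2 shares 281 exon bases with Nrap, a gene on the opposite strand whose counts were 1.46% to 1.88% of those of Habp2.

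**Figure D4:**
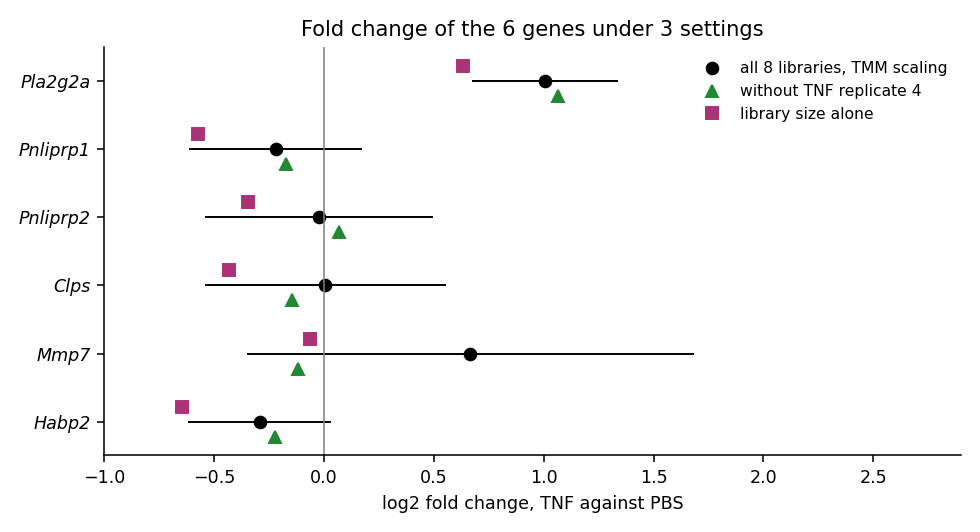
Log2 fold change of each gene, TNF against PBS (x axis), by gene (y axis). Black points and lines: all 8 libraries with TMM scaling and the 95% interval; green triangles: without TNF replicate 4; purple squares: library size alone. Only the interval of Pla2g2a (0.68 to 1.33) lies clear of 0, and the Mmp7 triangle and square lie below 0 while its point is at 0.67.

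Counts were also divided by the Lyz1 counts of the same library, since a ratio within a library does not depend on the scaling between libraries. Mmp7 had 31.7, 25.8, 26.9 and 30.9 counts per 1000 Lyz1 counts in PBS and 25.4, 25.9, 20.2 and 32.0 in TNF. Relative to Lyz1 the groups overlapped and TNF replicate 4 was close to the highest PBS library. Against the summed Defa genes, whose precursors matrilysin cuts, Mmp7 had 14.5, 11.9, 12.1 and 15.6 counts per 1000 Defa counts in PBS and 11.04, 11.6, 9.87 and 12.7 in TNF, with a difference in the mean log2 ratio of -0.26. These groups overlapped as well, through TNF replicate 4 alone. TNF replicates 1 to 3 all lay below the lowest PBS library, with a difference in the mean log2 ratio of -0.31. Without TNF replicate 4 the groups did not overlap on the Defa ratio for 4 of the 6 genes (Mmp7, Clps and Habp2 lower, Pla2g2a higher), against 42.4% of all tested genes other than the Defa genes. With all libraries they did not overlap for Clps and Habp2, against 30.4%.

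The other 5 genes were low relative to Lyz1 in TNF replicate 4. Habp2 had 4.98, 4.20, 4.14 and 4.74 counts per 1000 Lyz1 counts in PBS, 3.59, 3.41 and 3.42 in TNF replicates 1 to 3 and 1.006 in replicate 4. With all 8 libraries it was the only 1 of the 6 whose groups did not overlap on this ratio, against 29.1% of all tested genes (25.8% lower in TNF), and it stayed separate with Itln1 (intelectin, a granule lectin) or the summed Defa genes as the denominator. Without TNF replicate 4 the groups did not overlap for 2 of the 6, Habp2 (lower) and Pla2g2a (higher), against 42.9% of tested genes. Clps had 13.8 to 18.2 in PBS, 13.2 to 14.4 in TNF replicates 1 to 3 and 6.998 in replicate 4, and with all libraries its groups were separate only against the summed Defa genes. Pnliprp2 had 18.6 to 30.3, then 18.3 to 25.5, and 5.92 in replicate 4, and Pnliprp1 had 0.235 to 0.421, then 0.185 to 0.274, and 0.0715.

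Pla2g2a had 2.55 to 3.94 counts per 1000 Lyz1 counts in PBS and 6.09, 5.21 and 6.58 in TNF replicates 1 to 3. In TNF replicate 4 it had 1.77, below every PBS library, and without that library the groups were separate. The difference in the mean log2 ratio was 0.47 with all libraries and 0.91 without TNF replicate 4. Relative to Itln1 that library lay elsewhere. Pla2g2a had 9.28, 6.58, 6.75 and 10.54 counts per 1000 Itln1 counts in PBS, 16.4, 14.8 and 18.1 in TNF replicates 1 to 3 and 10.50 in TNF replicate 4, above 3 of the 4 PBS libraries, with a difference in the mean log2 ratio of 0.85. TNF replicate 4 was thus below every PBS library relative to Lyz1 and in plain CPM, within the PBS range relative to Itln1, and above it in normalized CPM.

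**Figure D5:**
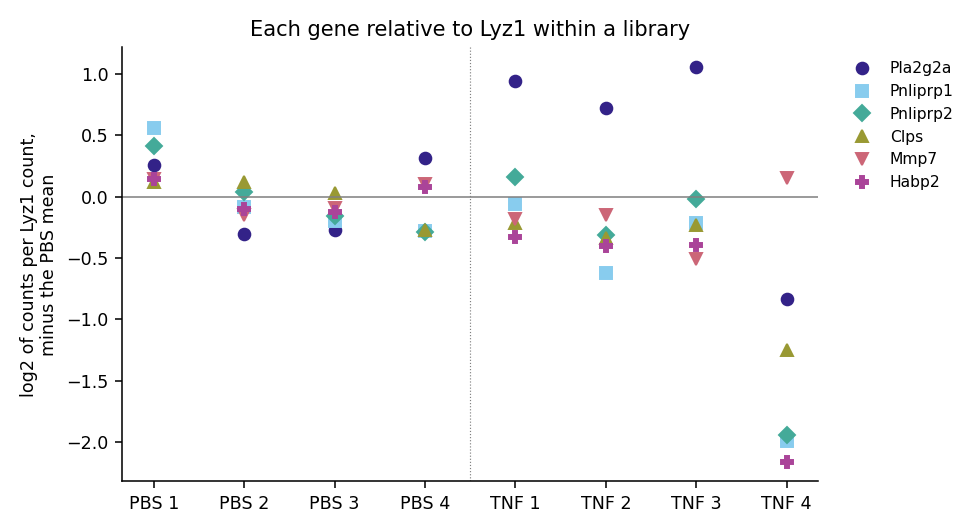
Counts of each gene per Lyz1 count in each library, as log2 relative to the mean of the 4 PBS libraries (y axis), by library (x axis; the dotted line parts PBS from TNF; symbols: genes). In TNF replicate 4 Mmp7 stays near 0 while the other 5 genes lie below it; Pla2g2a lies above 0 in TNF replicates 1 to 3.

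The wider families were followed through 7 lists of related genes. Of 112 listed genes, 49 passed the filter on low counts, and 22 of these were called (14 higher and 8 lower in TNF), or 44.9% against the 43.0% of all tested genes. Their median log2 fold change was 0.28. With library size alone 13 of the 49 were called, or 26.5% against 23.8% of all tested genes, and without TNF replicate 4 it was 27 of 52, or 51.9% against 50.4%. Counts in the single lists below are to be read beside these shares of all tested genes.

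In the list of secreted phospholipases A2, which also holds their receptor Pla2r1 (1 count in all libraries together), 7 of 12 genes were tested, 3 were higher and 2 lower. Beside the cluster on chromosome 4, Pla2g12b, a family member without the usual catalytic residue, rose by log2 1.43 ± 0.37 (SE, adjusted p = 0.00996, edgeR) from 1.40 to 3.62 normalized CPM in PBS to 3.51 to 8.86 in TNF. Pla2g12a, another conserved secreted phospholipase, fell by 0.41 on the log2 scale (adjusted p = 0.0113, edgeR), from 28.8 to 29.6 normalized CPM in PBS to 18.2 to 24.2 in TNF. Neither of them was called with library size alone (adjusted p = 0.0598 and 0.116, edgeR), and the list had 1 higher (Pla2g5) and 2 lower (Pla2g2c and Pla2g10). Pla2g10, group X phospholipase, was not called with all libraries and TMM scaling (log2 -0.46, adjusted p = 0.461, edgeR), but was called lower with library size alone (log2 -1.09, adjusted p = 0.0319, edgeR) and without TNF replicate 4 (log2 -1.17, adjusted p = 0.00500, edgeR). In the list of the lipase gene family and its helper proteins, 4 of 12 were tested, 2 were higher and 1 lower. Liph, a phospholipase that makes lysophosphatidic acid, rose by log2 1.08 ± 0.13 (SE, adjusted p = 9.94e-05, edgeR), and Pla1a, a phosphatidylserine phospholipase, rose by log2 2.99 ± 0.54 (SE, adjusted p = 0.00125, edgeR) from a mean of 0.183 normalized CPM in PBS. Lmf1, a chaperone of lipases in the endoplasmic reticulum, fell by 0.54 (log2, adjusted p = 0.0105, edgeR), and Pnlip, pancreatic lipase itself, had no count. Lipg, endothelial lipase, was not called, with means of 1.65 normalized CPM in PBS and 0.883 in TNF (log2 -0.84, adjusted p = 0.0741, edgeR). With library size alone Pla1a was the 1 call in the family, and Liph (log2 0.70, adjusted p = 0.111, edgeR) and Lmf1 (adjusted p = 0.0504, edgeR) missed the threshold.

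Of 20 other matrix metalloproteinases, 7 were tested and 1, Mmp24, was called, falling by 0.80 on the log2 scale (adjusted p = 0.0175, edgeR) from a mean of 2.63 normalized CPM. No gene of this list was called without PBS replicate 2, against 5043 of all tested genes. Mmp15, a membrane-type enzyme, was at 68.0 ± 9.89 normalized CPM in PBS and 84.5 ± 10.2 in TNF (SD, n = 4). Mmp20 (enamelysin) had a mean of 24.3 normalized CPM in PBS and Mmp14, another membrane-type enzyme, a mean of 15.1, and none of these 3 passed the test. Without TNF replicate 4 Mmp15 was called higher (log2 0.41, adjusted p = 0.0102, edgeR), while with library size alone its log2 fold change was -0.05. Of 5 metalloproteinase inhibitors only Timp2 was tested, with means of 0.954 normalized CPM in PBS and 0.600 in TNF (log2 -0.72, adjusted p = 0.0642, edgeR). Timp2 was called lower with library size alone (log2 -1.14, adjusted p = 0.0306, edgeR) and without TNF replicate 4 (log2 -0.86, adjusted p = 0.0272, edgeR).

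Among extracellular serine proteases, 10 of 31 were tested, 2 were higher and 4 lower. St14 (matriptase) rose by log2 1.46 ± 0.13 (SE, adjusted p = 9.14e-06, edgeR), from 73.4 ± 4.16 to 202.1 ± 25.5 normalized CPM (SD, n = 4), and Tmprss4, a membrane protease, rose by log2 0.88 ± 0.11 (SE, adjusted p = 0.000138, edgeR). Prss8 (prostasin), an anchored membrane protease, fell by 0.76 on the log2 scale (adjusted p = 0.00816, edgeR). Tmprss2, another membrane protease, at 535.4 ± 51.4 normalized CPM in PBS, was at 455.3 ± 27.3 in TNF and was not called. Klk1, tissue kallikrein, fell by 0.58 on the log2 scale (adjusted p = 0.0155, edgeR). With library size alone Tmprss4 was not called (log2 0.48, adjusted p = 0.239, edgeR), which left St14 as the 1 riser (log2 1.11, adjusted p = 0.0245, edgeR), and 2 were lower, Klk1 (adjusted p = 0.0297, edgeR) and Prss8 (adjusted p = 0.0282, edgeR).

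Of 22 serine protease inhibitors, 11 were tested, 5 were higher and none lower, beside 43.0% of all tested genes called (23.4% higher). Serpinb1a, an inhibitor of neutrophil proteases, rose by log2 1.62 ± 0.19 (SE, adjusted p = 6.48e-05, edgeR), and Spint1, an inhibitor of matriptase, by log2 1.38 ± 0.15 (SE, adjusted p = 3.31e-05, edgeR). Serpinb6a rose by log2 1.18 ± 0.22 (SE, adjusted p = 0.00149, edgeR). Spint2, another membrane inhibitor of such proteases, was at 589.8 ± 69.9 normalized CPM in PBS and 586.1 ± 17.3 in TNF (SD, n = 4). Spink4, a secreted trypsin-inhibitor-like protein, was, like Mmp7, highest in TNF replicate 4, with 3567 to 6038 normalized CPM in PBS, 4855 to 5186 in TNF replicates 1 to 3 and 17895 in replicate 4. Of the 11 inhibitors 2 were called with library size alone, Serpinb1a and Spint1, and Serpinb6a missed the threshold (log2 0.65, adjusted p = 0.0798, edgeR).

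Of 10 other granule products, 9 were tested and 2 were called, the antimicrobial lectins Reg3b (log2 2.29 ± 0.41 SE, adjusted p = 0.00107, edgeR) and Reg3g (log2 1.80 ± 0.28 SE, adjusted p = 0.000466, edgeR). Both were also called with library size alone and without TNF replicate 4. Lyz1, Itln1 and Ang4 (an antimicrobial ribonuclease) were not called, with log2 fold changes of 0.70, 0.15 and 0.44. In the same order these were 0.14, 0.04 and -0.21 without TNF replicate 4 and 0.07, -0.28 and -0.24 with library size alone, so that the sign of Ang4 turned under both and that of Itln1 under the second, and none was called.

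The protein-coding genes whose pattern over the 8 libraries was nearest to each of the 6 were found by the root mean square difference of centred log2 normalized CPM, among genes with a mean of at least 10 normalized CPM. Of 6286 candidates, the nearest to Pnliprp1 was its neighbour Pnliprp2, at 0.14, followed by Pkm and Entpd6. In the other direction 9 of the 13367 other tested genes were nearer to Pnliprp2 than Pnliprp1 was. The nearest to Pnliprp2 were G6pdx, Tkt and Nelfcd, each at 0.12. Those to Clps were Cox8a, Yif1b and Bsg, those to Mmp7 were Ssr4, Sec11c and Tmem256, and those to Habp2 were Lamp1, Eef2 and Slc35c2. Surf6, Akt2 and Exoc5 were nearest to Pla2g2a, at 0.06 to 0.07, with log2 fold changes of 1.05, 1.05 and 0.96. These are descriptions over 8 libraries that share the contrast and the scaling.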

How the data were processed

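RNA of purified Paneth cells was measured in 4 PBS and 4 TNF libraries made with the TruSeq Stranded mRNA kit. The authors deposited raw counts, not normalized, in a table of 55414 Ensembl IDs and 8 library columns, each of which matched the label of 1 sample. The submitters' processing notes name FastQC 0.12, STAR 2.7.10a, DESeq2 and the mm39 build. The counter, its annotation, its strand setting and its treatment of reads that match several genes are named in no source used here, so that overlapping and antisense genes are uncertain.

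Symbols, positions and exon lengths came from GENCODE mouse release 39 (GRCm39), which matched 54749 IDs; the other 665 stayed in totals and tests. Stretches of 75 bases of the canonical transcripts of Pla2g2a, Pnliprp1, Pnliprp2 and Clps occurred in no other gene's transcripts, against 95% of those of Mmp7 and 92.5% of those of Habp2. The 6 genes, the lists and the rule for named genes were chosen with earlier results of these data known. The rule took the 6 genes, from each list up to 3 tested genes of highest mean normalized CPM and up to 2 called genes of largest log2 fold change, the 3 genes nearest in pattern to each of the 6, Nfkbia, and Lyz1 and the Defa genes as denominators. Genes named outside it, which are Pla2g2c, Pla2g2d, Pla2g2e, Pla2g10, Pla2r1, Prss8, AV064505, Nrap and the markers, were chosen after their values were seen.

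All 13368 genes that passed filterByExpr were tested in edgeR 4.0.16 (R 4.3.3) by its quasi-likelihood F test with TMM factors, no covariate and Benjamini-Hochberg adjustment (adjusted p under 0.05). Fold changes are TNF against PBS. SEs were derived from the F statistic and intervals from them at the 95% level. Ratios, per-length levels and likeness of pattern (on log2 CPM with a prior count of 2) were described without a test. Library totals were 23824717 to 32576077; the lowest chi-square per degree of freedom between libraries was 8.77, so none was a repeat of another. Alternatives were other scalings, filters and tools (DESeq2 1.42.0, limma 3.58.1), a block on the replicate number, leaving out each library, other denominators and other lengths. The canonical transcript length was added after seeing the data. P-values weigh the difference between the groups against the spread between these libraries, with dispersions moderated over all tested genes.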

Additional observations from a re-analysis of the deposited data

Results flagged for a closer look

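For each of the 6 genes, and for Mmp7 against the Defa genes, the 4 libraries of a group were searched for a value whose gap to its nearest neighbour took a share of the group's range above Dixon's critical value for 4 samples at the 95% level. Of 26 groups searched, 3 held such a value, and chance gives about 1 in 20. All 3 were in TNF replicate 4. Mmp7 was at 14528 normalized CPM there against 3192 to 4288 in TNF replicates 1 to 3, a gap of 0.903 of the range. Clps had 6.998 counts per 1000 Lyz1 counts against 13.2 to 14.4, a gap of 0.841. Habp2 had 1.006 counts per 1000 Lyz1 counts against 3.41 to 3.59, a gap of 0.930. The TMM factor of this library was 0.448, and its part in these values was not tested.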

How the results depend on the processing

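Pla2g2a was called under every alternative except library size alone (log2 0.63), and its log2 fold change with 1 library left out ranged from 0.93 to 1.07. For Clps the direction turned with RLE scaling (-0.0127), library size alone (-0.43), no filter beyond 1 count (-0.054), at least 1 CPM in at least 4 libraries (-0.0037) and DESeq2 (-0.0127), and leaving out 1 library gave -0.18 to 0.13. Mmp7 turned with library size alone (-0.0627) and without TNF replicate 4, and its range over left-out libraries was -0.12 to 0.89. Pnliprp2 ranged from -0.20 to 0.0686, Pnliprp1 from -0.40 (called, without PBS replicate 4) to -0.13, and Habp2 from -0.38 to -0.22. Habp2 was called by DESeq2 (-0.30). The number of the 6 genes called was 0 with library size alone, 2 with DESeq2 and 2 without PBS replicate 4, and leaving out 1 library gave 1 to 2. Over all tested genes 5747 were called, 3182 with library size alone, 6069 with DESeq2 and 5586 without PBS replicate 4. With 1 library left out the range was 4756 to 6922. On the 7 lists 13 were called with library size alone and 20 to 27 with 1 library left out. Same-numbered libraries had correlations of -0.14 to 0.07 in their deviations from the group means. Replicates 1 and 2 correlated best with their own number, and replicates 3 and 4 did not. With 4 libraries per group this does not settle whether the replicate numbers pair the samples. A replicate block gave 5087 calls, 1 of them among the 6 genes (Pla2g2a, log2 1.00). The cause of these shifts was not tested.

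Levels per kilobase in PBS moved by more than 1 SD with the longest annotated transcript for Pla2g2a (561.6), Mmp7 (3718) and Habp2 (207.4), with the canonical transcript for Pla2g2a (561.6), Pnliprp1 (25.2), Mmp7 (3770) and Habp2 (223.7), and with library size alone for Pla2g2a (574.8), Mmp7 (3892) and Habp2 (169.9). The difference in the mean log2 ratio to Lyz1 was -0.51 for Clps, -0.17 for Mmp7 and 0.47 for Pla2g2a, and with Itln1 as the denominator -0.13, 0.21 and 0.85. With 1 library left out the ratio to Lyz1 was 0.28 to 0.91 for Pla2g2a and -0.76 to -0.06 for Pnliprp2, -0.95 to -0.30 for Pnliprp1, -0.61 to -0.26 for Clps, -0.28 to -0.06 for Mmp7 and -0.99 to -0.37 for Habp2, and the ratio of Mmp7 to the Defa genes was -0.31 to -0.18. Pla2g2c and Pla2g2d are limited by depth, with at most 41 counts in a library.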
